A study of Homo sapiens with 5 samples.

Results

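The genes described here are 9 noncoding hosts of small nucleolar RNAs (snoRNAs), GAS5, SNHG1, SNHG5, SNHG6, SNHG7, SNHG8, SNHG12, SNHG15 and ZFAS1. They were picked by a list of gene symbols out of 19716 genes with a read in at least 1 library. All 9 had reads in each of the 5 libraries. RNA sequencing was performed on HEK293T, a cell line from human embryonic kidney with the large T antigen of SV40. In 4 groups the cells received 5 gRNAs against the uPA promoter with 1 fusion of dCas9, a Cas9 that binds DNA but does not cut it, and blue fluorescent protein (BFP). The groups were dCas9-BFP-DNMT1, dCas9-BFP-DNMT3A and dCas9-BFP-DNMT3B, which carry catalytic domains of DNA methyltransferases, and dCas9-BFP-EGFP, which carries a green fluorescent protein. DNMT3A and DNMT3B methylate DNA de novo, whereas DNMT1 maintains methylation after replication. The fifth group, the control, was given pUC19, a plasmid that encodes neither dCas9 nor a gRNA. RNA was taken from all 5 groups 48 hours after transfection with X-tremeGENE 9, from sorted BFP-positive cells according to the labels, which do not say how pUC19 cells without BFP passed that gate. The design has 1 library per group, so all intervals below cover counting error only, and the difference between a fusion and the control cannot be told apart from effects of dCas9, BFP, the gRNAs or the sort.

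SnoRNAs guide the chemical modification of ribosomal and other RNAs. Box C/D snoRNAs guide ribose methylation and box H/ACA snoRNAs guide pseudouridylation. In human cells most of them are cut out of introns, and the spliced exons of their host genes are exported as a separate product. In many noncoding hosts these exons hold only short open reading frames, and the spliced RNA is degraded on the ribosome by nonsense-mediated decay, so that its level depends on translation as well as on transcription. The promoters of many hosts start transcription at a C within a run of pyrimidines, a form known from genes of the translation machinery. The values below are for the spliced, polyadenylated host RNA and not for the snoRNAs.

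The sequences around the start sites are shown because the annotated starts differ in how far they have this form. Other starts of the same genes, GAS5 among them, were not examined. RefSeq promoter sequences (GRCh38.p14, 1 start per gene) were found for 7 of the 9 hosts, and the entries not found were SNHG6 and SNHG15. The lines give 10 bases before and 20 bases from the start, 5′ to 3′ on the gene's strand, with capitals for the unbroken run of C and T that opens at a C on the start itself.
GAS5: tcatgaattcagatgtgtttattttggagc
SNHG1: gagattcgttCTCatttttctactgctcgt
SNHG5: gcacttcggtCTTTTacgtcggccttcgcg
ZFAS1: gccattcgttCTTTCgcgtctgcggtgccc
SNHG7: ccttctcgtcCTCTgcgtgcgccggaggct
SNHG8: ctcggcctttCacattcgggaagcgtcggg
SNHG12: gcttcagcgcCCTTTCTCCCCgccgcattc
The windows lie at chr1:173869026-173869055 (GAS5, minus strand), chr11:62855866-62855895 (SNHG1, minus), chr6:85678714-85678743 (SNHG5, minus), chr20:49278632-49278661 (ZFAS1, plus), chr9:136728165-136728194 (SNHG7, minus), chr4:118278752-118278781 (SNHG8, plus) and chr1:28581854-28581883 (SNHG12, minus). A C at the annotated start was present in 6 of the 7 hosts, against 14.7% of 35116 promoters in the table. The run was longest in SNHG12, at 11 bases, and reached 5 bases in SNHG5 and ZFAS1, 4 in SNHG7, 3 in SNHG1 and 1 in SNHG8. A C followed by at least 4 pyrimidines was found in 3 hosts and in 4.07% of all promoters. The motif CACGTG, which reads the same on both strands, was found between 250 bases before and 50 after the start in 1 host, SNHG7, 122 bases before its start, and in 7.26% of all promoters. These letters describe the annotated windows and were not tied to any measured difference.

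The libraries held between 26250000 and 36140000 reads on genes (rounded), and 3 reads, the smallest count taken as detectable, corresponded to 0.0830 to 0.114 reads per 1000000. Reads on the gene whose domain each methyltransferase fusion carries made up 3.53% (DNMT1), 3.19% (DNMT3A) and 5.98% (DNMT3B) of its library. These counts join the cell's own transcript with the domain of the fusion and leave out dCas9 and BFP. All 6 markers of the HEK293 line were found in every library, with a summed level of 185 to 224 TPM (transcripts per 1000000, reads divided by gene length and scaled to the same sum in each library) in the fusions and 387 TPM in the control. The lower sum rested on the neurofilament genes NEFM and NEFL, which were called lower in all 4 fusion libraries, while INA, at 55.4 to 85.4 TPM in the fusions and 39.0 TPM in the control, was higher in each of them and called with DNMT3B, and the other 3 markers were not called. Markers of other cell types had reads for 7 of 8 genes and summed to 4.47 to 9.26 TPM, most of it COL1A1 (3.87 to 7.97 TPM), while CD3E was at 0 in every library. The part of these shifts in the results below was not tested. The library's strand was not stated, and annotated exons of GAS5, SNHG6, SNHG7, SNHG8, SNHG12 (by 8 bp) and ZFAS1 overlap exons annotated on the opposite strand. Reads of the opposite strand in such stretches cannot be told apart from theirs. The overlap was taken over all annotated exons of a gene, and how far it reaches the counted transcript was not examined. No such overlap was annotated for SNHG1, SNHG5 and SNHG15.

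The 9 hosts together held 22038 reads with dCas9-BFP-DNMT1, 35418 with dCas9-BFP-DNMT3A, 24426 with dCas9-BFP-DNMT3B, 20926 with dCas9-BFP-EGFP and 26230 in the control. Their summed level was 2421 TPM, 3539.6 TPM, 2775 TPM, 2506 TPM and 2178 TPM in the same order. It was therefore lowest in the control and highest with dCas9-BFP-DNMT3A. In such bulk RNA, less of a transcript per cell and fewer cells with it cannot be told apart. GAS5 and SNHG5 made up 50.6% to 61.4% of this sum in every library, and SNHG12 was the lowest host in each fusion library, while SNHG7, at 53.0 TPM, was the lowest in the control, as the plot of TPM by host and library shows.

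**Figure D1:**
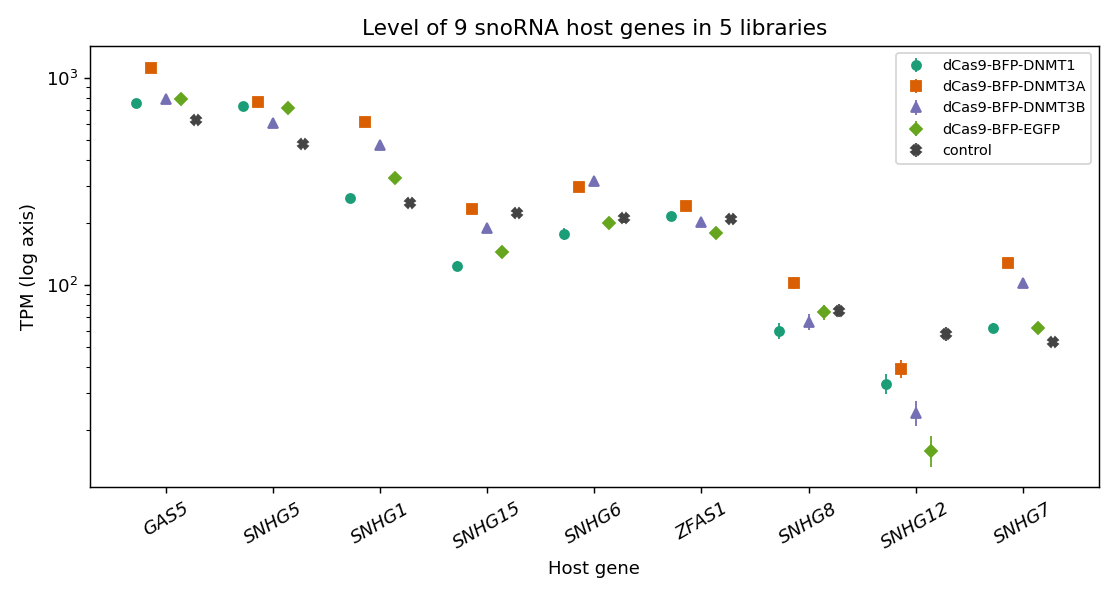
TPM (log axis) of the 9 host genes, ordered by their level in the control, in the 5 libraries. Points are single libraries and bars are 95% exact counting intervals. The DNMT3A fusion library lies above the other fusions for 8 hosts, and SNHG12 is highest in the control at 58.1 TPM.

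Among the hosts of box C/D snoRNAs, GAS5 was the most abundant. GAS5 (growth arrest-specific 5, chromosome 1, 173827697 to 173838020 in GRCh37, minus strand) is known to accumulate in cells that stop dividing or translating. Its level was 756 TPM with the DNMT1 fusion, 1119.7 TPM with DNMT3A, 794 TPM with DNMT3B, 789 TPM with EGFP and 624 TPM in the control. All 4 fusion libraries lay above the control, and DNMT3A stood apart from the other 3 fusions. The ratio to the control was 1.79 (interval 1.74 to 1.85) with DNMT3A and between 1.21 and 1.27 with the others. DNMT3B and EGFP, neighbours in this order, did not differ beyond counting error (ratio 1.01, interval 0.971 to 1.04).

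SNHG5 (chromosome 6, 86360209 to 86388650, minus strand) carries the paired SNORD50 snoRNAs. It was measured at 731 TPM with DNMT1, 766 TPM with DNMT3A, 609 TPM with DNMT3B, 714 TPM with EGFP and 479 TPM in the control. Again all fusions were higher than the control, but here DNMT3B was the lowest fusion, and DNMT1 and EGFP did not differ beyond counting error (ratio 1.02, interval 0.983 to 1.07). The fusions spread over no more than 1.26-fold, against 1.60-fold once the control is included.

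SNHG1 (chromosome 11, 62619450 to 62623425, minus strand), the host of 8 listed box C/D snoRNAs, showed the widest spread of the box C/D hosts. It reached 263 TPM with DNMT1, 613 TPM with DNMT3A, 475 TPM with DNMT3B, 330.4 TPM with EGFP and 248 TPM in the control. The 2 libraries with de novo methyltransferase domains were thus both above DNMT1 and EGFP, and DNMT1 was close to the control (ratio 1.06, interval 1.01 to 1.11). Against the control the ratio was 2.47 (2.39 to 2.56) with DNMT3A and 1.91 (1.84 to 1.99) with DNMT3B. Reads covered 100% of the SNHG1 transcript in each library. At this ceiling the covered part cannot show whether the reads were spread differently along it.

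SNHG6 (chromosome 8, 67832796 to 67838633, minus strand), which hosts SNORD87, had 176 TPM with DNMT1, 299 TPM with DNMT3A, 316 TPM with DNMT3B, 199 TPM with EGFP and 209 TPM in the control. DNMT3A and DNMT3B were higher than the other 3 libraries and did not differ from each other beyond counting error (ratio 0.944, interval 0.883 to 1.01). EGFP and the control also lay within counting error of each other, at a ratio of 0.952 (0.880 to 1.03). SNHG6 was the only host for which a fusion other than DNMT3A gave the highest fusion level.

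ZFAS1 (chromosome 20, 47894715 to 47916137, plus strand) is transcribed next to the 5′ end of ZNFX1 and hosts 3 related box C/D snoRNAs. Its levels of 216 TPM (DNMT1), 239.6 TPM (DNMT3A), 201 TPM (DNMT3B), 178 TPM (EGFP) and 208 TPM (control) made it the steadiest of the 9 hosts, with 1.35-fold between the highest and the lowest library. The control lay in the middle. In TPM, the intervals for DNMT1 (ratio to the control 1.04, interval 0.986 to 1.09) and DNMT3B (0.966, 0.916 to 1.02) held a ratio of 1. For DNMT3B this depended on the scale. The exact conditional binomial test on shares of reads, described below, gave an adjusted p of 0.000748. The covered part of the ZFAS1 transcript varied more, from 61.7% with EGFP to 73.2% in the control.

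The other 4 genes host box H/ACA snoRNAs, and 1 of them, SNHG12, a box C/D snoRNA as well. SNHG7 (chromosome 9, 139615818 to 139622636, minus strand) has the longest transcript of the 9 in the files, 2176 bases, and a GC content of 58.0%. It had 62.2 TPM with DNMT1, 127 TPM with DNMT3A, 102 TPM with DNMT3B, 61.7 TPM with EGFP and 53.0 TPM in the control. The order resembled that of SNHG1: the DNMT3A and DNMT3B libraries were at the top, at ratios to the control of 2.40 (interval 2.27 to 2.54) and 1.92 (1.80 to 2.04), while DNMT1 and EGFP did not differ beyond counting error (1.01, 0.940 to 1.08) and exceeded the control by 1.17-fold and 1.16-fold. Coverage of the SNHG7 transcript did not follow its level, at 95.7% with DNMT3A but 68.0% with DNMT3B and 83.4% in the control.

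SNHG15 (chromosome 7, 45022618 to 45026560, minus strand), the host of SNORA9 and a transcript of short half-life, was measured at 123 TPM with DNMT1, 234 TPM with DNMT3A, 187 TPM with DNMT3B, 145 TPM with EGFP and 223 TPM in the control. In contrast to SNHG1 and SNHG7, the control was high for SNHG15. It lay within counting error of DNMT3A (ratio 1.05, interval 0.993 to 1.11), and the ratio to the control fell to 0.553 (0.518 to 0.591) with DNMT1 and 0.649 (0.609 to 0.692) with EGFP. Among the fusions alone the order of SNHG15 was the same as that of SNHG1: DNMT3A, DNMT3B, EGFP, DNMT1.

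SNHG8 (chromosome 4, 119199858 to 119206471, plus strand) hosts SNORA24. It had 59.9 TPM with DNMT1, 102 TPM with DNMT3A, 66.4 TPM with DNMT3B, 73.6 TPM with EGFP and 75.0 TPM in the control. Only DNMT3A stood above the rest, at 1.36 times the control (interval 1.23 to 1.501). Neighbours below it did not differ beyond counting error in any of the 3 steps: EGFP from the control (0.982, 0.878 to 1.10), DNMT3B from EGFP (0.901, 0.796 to 1.02) and DNMT1 from DNMT3B (0.902, 0.794 to 1.03). Libraries farther apart did differ: the ratio to the control was 0.798 (0.711 to 0.895) with DNMT1 and 0.885 (0.788 to 0.992) with DNMT3B.

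SNHG12 (chromosome 1, 28905050 to 28909644, minus strand) went the other way. This host of SNORA16A, SNORA44, SNORA61 and SNORD99 had 311 reads with DNMT1, 380 with DNMT3A, 205 with DNMT3B, 135 with EGFP and 702 in the control, or 33.1 TPM, 39.4 TPM, 24.0 TPM, 15.8 TPM and 58.1 TPM. All 4 fusion libraries lay below the control, and the spread of 3.68-fold was the widest of the 9 hosts. The lowest library was EGFP, the fusion without a methyltransferase, at 0.272 times the control (interval 0.224 to 0.327) and 0.401 times DNMT3A (0.327 to 0.489). SNHG12 therefore separated DNMT1 from EGFP, at a ratio of 2.10 (1.71 to 2.59), where SNHG5 and SNHG7 did not. The remaining hosts also separated them beyond counting error, by less. ZFAS1 had DNMT1 above EGFP, at 1.22 (1.15 to 1.29). DNMT1 lay below EGFP for GAS5 (0.958), SNHG1 (0.795), SNHG6 (0.884), SNHG8 (0.813) and SNHG15 (0.852).

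**Figure D2:**
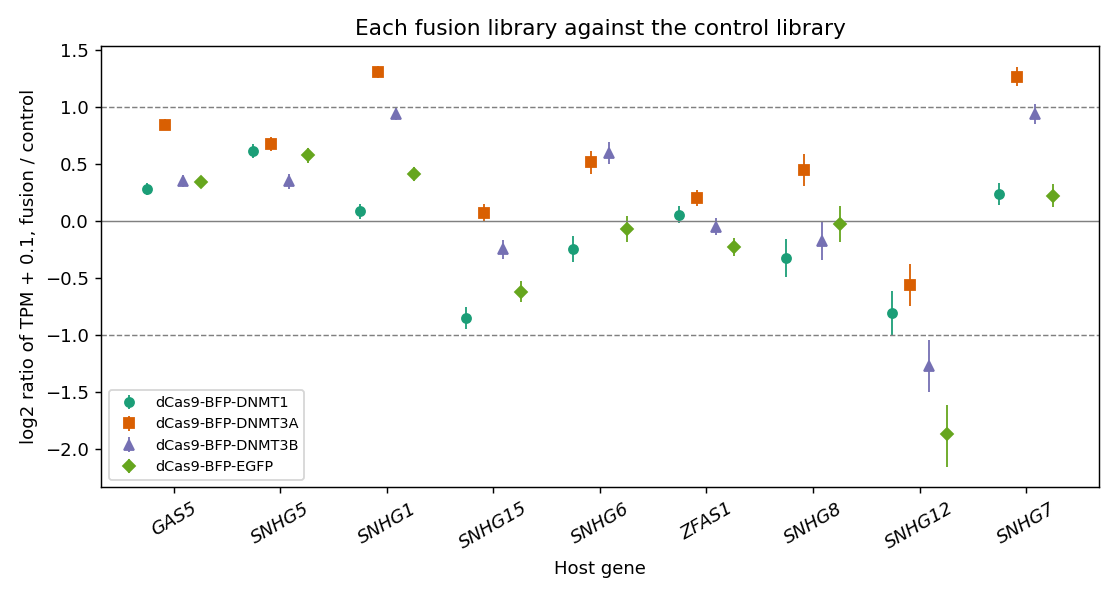
log2 ratio of TPM + 0.1 of each fusion library to the control for the 9 hosts, ordered as in the plot of levels. Bars are 95% exact counting intervals, the solid line marks no difference and the dashed lines 2-fold. SNHG1 and SNHG7 with DNMT3A lie above the upper line, and SNHG12 with DNMT3B and EGFP lies below the lower one.

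Each fusion was then compared with the control over all genes. A gene was called at a Benjamini-Hochberg adjusted p of at most 0.001 in an exact conditional binomial test and a ratio of TPM + 0.1 of at least 2. This test compares 2 libraries, not 2 conditions. With dCas9-BFP-DNMT1, 0 of 9 hosts were called, against 5.16% of 19022 genes tested. With dCas9-BFP-DNMT3A, 2 hosts were called, SNHG1 and SNHG7, both higher, at log2 ratios of 1.31 (interval 1.25 to 1.36) and 1.26 (1.18 to 1.35). The background was 9.36% of 18970 genes. With dCas9-BFP-DNMT3B the only call was SNHG12, lower at -1.27 (-1.51 to -1.05), against 8.76% of 18962 genes. SNHG1 and SNHG7 were just short of 2-fold in that library, both at a log2 ratio of 0.94, and were called when TMM scaling, which sets the typical gene to no change, took the place of the TPM sum (1.03 each). With dCas9-BFP-EGFP the only call was again SNHG12, at -1.87 (-2.16 to -1.61), against 5.70% of 19125 genes. With a coefficient of variation of 0.2 assumed between libraries, in place of counting error alone, 0 hosts were called in each of the 4 comparisons.

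The median log2 ratio of the 9 hosts was 0.05 (DNMT1), 0.51 (DNMT3A), 0.35 (DNMT3B) and -0.03 (EGFP), where the medians of all genes were -0.15, -0.06, -0.05 and -0.0032. These 4 comparisons share the control library. Differences under 2-fold were common, and 7 or 8 hosts in each comparison had an adjusted p of at most 0.001 in the exact test whatever their ratio, as did 7744 to 8905 of all genes. Level alone was therefore compared next. Among 8331 genes of at least 10 TPM in every library, all 4 fusions lay above the control for 24.8%, and for 4 of the 9 hosts (GAS5, SNHG1, SNHG5, SNHG7). All 4 lay below it for 32.4%, and for 1 host, SNHG12. The remaining 4 hosts had the control inside the range of the fusions.

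The DNMT3A library was the highest of the 4 fusions for 8 hosts, SNHG6 being the exception, against 27.2% of the 8331 genes. Both DNMT3A and DNMT3B were higher than both DNMT1 and EGFP for 5 hosts, GAS5, SNHG1, SNHG6, SNHG7 and SNHG15, against 38.5% of these genes. For GAS5 this rested on DNMT3B and EGFP, which were within counting error of each other.

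With 1 library a group, the fits that pool libraries take different constructs together as though they were replicates. In the first, the 4 fusions were set against the control in edgeR's quasi-likelihood test, and the single control was assumed to vary as the fusions do. None of the 9 hosts was called at a Benjamini-Hochberg adjusted p under 0.05, against 0.737% of 16001 genes, and 0 were called by DESeq2. At an unadjusted p under 0.05 there were 2 hosts, SNHG5 and SNHG12, where 18.0% of all genes passed. SNHG12 had a log2 change of -0.99 (SE 0.41, edgeR adjusted p = 0.252), SNHG1 of 0.80 (SE 0.39, 0.314) and SNHG5 of 0.61 (SE 0.21, 0.190). The other hosts were between -0.33 (SNHG15) and 0.78 (SNHG7). The median was 0.29 for the hosts and 0.03 for all genes.

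In the second fit the question was whether the hosts differ between constructs with a de novo methyltransferase domain and those without, so dCas9-BFP-DNMT3A and dCas9-BFP-DNMT3B were set against dCas9-BFP-DNMT1 and dCas9-BFP-EGFP, and no control library entered. Of the 9 hosts, 4 rose and 0 fell, where 11.0% of 15332 genes were called in either direction and 6.90% as higher. SNHG7 was higher by 0.83 on the log2 scale (SE 0.15, edgeR adjusted p = 0.0118) and SNHG1 by 0.83 (SE 0.15, adjusted p = 0.0123). SNHG6 was higher by 0.66 (SE 0.13, edgeR adjusted p = 0.0170) and SNHG15 by 0.60 (SE 0.15, adjusted p = 0.0363). These 4 are 2 hosts of box C/D snoRNAs and 2 of box H/ACA snoRNAs, and their levels in the fitted libraries run from 61.7 TPM to 613 TPM.

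The other 5 hosts were not called in this fit. SNHG12 had 0.30 (SE 0.37, edgeR adjusted p = 0.628), SNHG8 0.29, GAS5 0.26 (SE 0.16, adjusted p = 0.328), ZFAS1 0.10 and SNHG5 -0.13 (SE 0.14, adjusted p = 0.600). The median over all 9 was 0.30, and that over all genes -0.01. These calls depended on single libraries. Without dCas9-BFP-DNMT3A, and likewise without dCas9-BFP-DNMT3B, 0 hosts were called, with only 18 and 53 genes left called in all. Without dCas9-BFP-DNMT1, SNHG12 was called too, at 1.03 (edgeR adjusted p = 0.0128), and 3536 genes in all. Without dCas9-BFP-EGFP 4 hosts were called among 3850 genes. SNHG15 also lost its call when no filter on low counts was applied (edgeR adjusted p = 0.0567). The direction of the 4 called hosts was higher in every leave-out, as the plot of this fit shows.

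**Figure D3:**
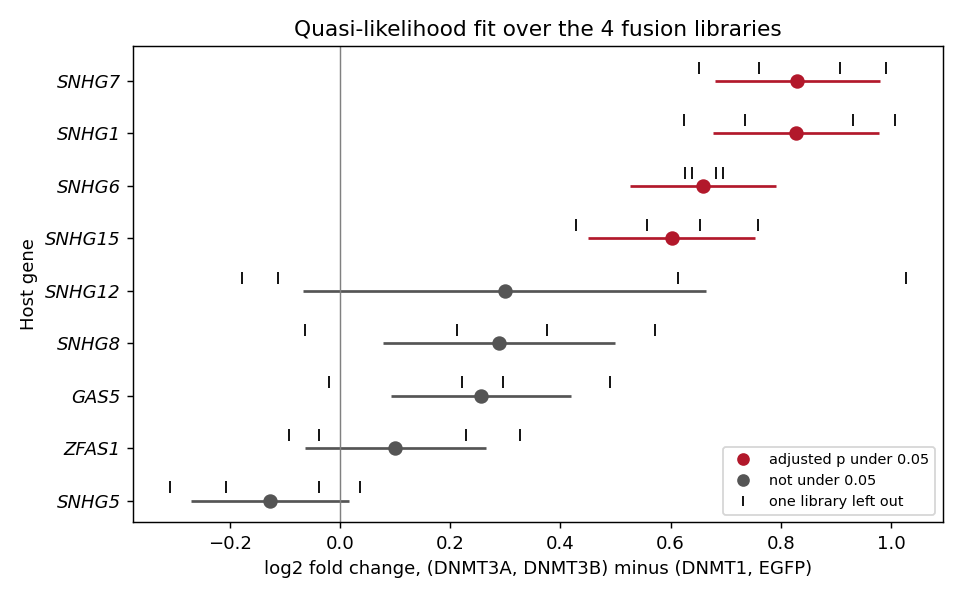
log2 fold change of the DNMT3A and DNMT3B fusion libraries over the DNMT1 and EGFP fusion libraries for the 9 hosts in edgeR's quasi-likelihood fit, with bars of 1 SE. Red marks an adjusted p under 0.05 and black ticks the estimates with 1 library left out. The 4 red hosts lie between 0.60 and 0.83 with all ticks above 0, while the ticks of the others reach both sides of 0.

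Mature snoRNAs have no poly(A) tail, the feature by which RNA was selected here, and few of their reads were found. Of 34 snoRNA symbols listed for the 9 hosts, not all of them necessarily distinct snoRNAs, 23 had a read in at least 1 library. Their summed counts were 44 reads with DNMT1, 49 with DNMT3A, 31 with DNMT3B, 60 with EGFP and 101 in the control. Those listed for SNHG1 held 22, 16, 16, 16 and 33 reads in that order, against 3689 to 8858 reads for SNHG1 itself. At this depth no difference in the snoRNAs was read from these counts.

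For 3 hosts a protein-coding gene starts within 2 kb on the opposite strand. SLC3A2, the heavy chain of several amino acid transporters, starts 51 bp from SNHG1. It had 251 TPM with DNMT1, 313 TPM with DNMT3A, 278 TPM with DNMT3B, 285 TPM with EGFP and 245 TPM in the control, and a log2 difference of 0.09 between the DNMT3A and DNMT3B pair and the other fusions (edgeR adjusted p = 0.663), where SNHG1 had 0.83. ZBTB37, a zinc finger gene that starts 800 bp from GAS5, had 6.18 TPM, 8.74 TPM, 7.91 TPM, 7.58 TPM and 2.40 TPM in the same order, above the control in all 4 fusions as GAS5 was (log2 change 1.71, edgeR adjusted p = 0.0525). ZNFX1, 248 bp from ZFAS1, ranged from 8.15 TPM to 10.5 TPM, and like ZFAS1 it had the control inside the range of the fusions. The difference between SNHG1 and SLC3A2 was not itself tested.

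Genes with a pattern near the hosts' median profile were sought among 8322 other genes of at least 10 TPM in every library, by Euclidean distance over the 4 log2 ratios to the control. The nearest 5 were AKIP1 (distance 0.0556), TUBD1 (0.0570), TMEM11 (0.0587), ADRA2C (0.0658) and FAM104A (0.0936). The hosts themselves were farther from their own median, from 0.394 for SNHG6 to 2.81 for SNHG12, so the median describes no single host closely.

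The other noncoding snoRNA hosts gave a comparison within the class. Of 14 listed, 10 had reads, and 0 were called higher in any comparison with the control. Of all genes, 5.16% to 9.36% were called in either direction there. SNHG3 was called lower with DNMT1, at 38.6 TPM against 83.2 TPM in the control, and DANCR was called lower with DNMT3A, at 123 TPM against 249 TPM. In edgeR 0 of these 10 were called in either fit, while 3 (against the control) and 2 (between the fusions) had an unadjusted p under 0.05, and DESeq2 called 2 and 1. Over all genes 18.0% and 28.8% had an unadjusted p under 0.05 in these fits. There edgeR called 0.737% and 11.0% of genes, and DESeq2 called 992 of 19716 and 2146 of 19379. The median log2 ratios of these other 10 hosts were -0.42 (DNMT1), 0.16 (DNMT3A), -0.0046 (DNMT3B) and -0.43 (EGFP). Each was below that of the 9 hosts in the same library, and the difference between the lists was not tested.

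Protein-coding hosts, mostly genes of ribosomal proteins and nucleolar factors, moved little in the median. All 34 were measured, with 0 to 1 called higher and 1 to 3 lower in each comparison with the control, and medians between -0.12 and 0.09. The higher call was PPAN with DNMT3A, a gene of only 27 to 148 reads per library that was also called lower with EGFP. Of all genes, 5.16% to 9.36% were called in either direction in these comparisons. TAF1D, a subunit of the RNA polymerase I factor SL1, was called lower in all 4 comparisons, from 149 TPM in the control to 54.7 to 65.6 TPM in the fusions (edgeR log2 change -1.26, adjusted p = 0.0265), and was the only coding host called in that fit. WDR43 was the only one called in the fit of the fusions, higher by 0.51 (edgeR adjusted p = 0.0292). At an unadjusted p under 0.05 there were 4 coding hosts against the control and 5 between the fusions, and DESeq2 called 3 and 4. Among 18 snoRNP proteins and assembly factors, NUFIP1, which helps to assemble box C/D particles, was called lower in all 4 comparisons and in the fit against the control (-1.08, edgeR adjusted p = 0.0481), and 0 were called higher. In the fit of the fusions NOLC1 was the only one called, at -0.56 (edgeR adjusted p = 0.0386). Of these 18, 6 and 4 had an unadjusted p under 0.05 in the first and the second fit, and DESeq2 called 2 and 1. Over all genes, such a p was found for 18.0% in the first fit and 28.8% in the second. Called in these fits were 0.737% and 11.0% of genes by edgeR, and 992 of 19716 and 2146 of 19379 by DESeq2. The medians of the 18 were -0.56, -0.31, -0.27 and -0.40 in the order DNMT1, DNMT3A, DNMT3B, EGFP.

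Because the hosts are known as substrates of nonsense-mediated decay, its factors were listed. All 26 were measured. Against the control 0 (DNMT1), 3 (DNMT3A), 3 (DNMT3B) and 2 (EGFP) were called, all higher, where 5.16%, 9.36%, 8.76% and 5.70% of all genes were called in either direction. In edgeR's fit of 4 fusions against the control 0 were called, 4 had an unadjusted p under 0.05 against 18.0% of all genes, and DESeq2 called 2. UPF1, SMG9 and DHX34 made up the calls with DNMT3A and with DNMT3B, and UPF1 and SMG5 those with EGFP. UPF1, the central helicase of the pathway, had 118 TPM with DNMT1, 225 TPM with DNMT3A, 213 TPM with DNMT3B, 176 TPM with EGFP and 79.2 TPM in the control, and SMG9, a partner of the SMG1 kinase, had 50.4 TPM, 115 TPM, 111 TPM, 75.1 TPM and 54.5 TPM. In the fit of the fusions 3 factors were called higher with DNMT3A and DNMT3B, SMG9 (0.81, edgeR adjusted p = 0.0160), DHX34 and SMG8, and 2 were called lower, the decapping enzyme gene DCP2 (-0.86, adjusted p = 0.00750) and NBAS (-0.65, adjusted p = 0.0184). Of all genes, 11.0% were called there. Of the 26 factors, 9 had an unadjusted p under 0.05, against 28.8% of all genes, DESeq2 called 7, and the median was 0.01. Over all genes DESeq2 called 992 of 19716 in the fit against the control and 2146 of 19379 in the fit of the fusions.

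Protein-coding targets of the same decay were listed too, 15 genes, of which 8 are also among the factors above. Against the control, 5.16% (DNMT1), 9.36% (DNMT3A), 8.76% (DNMT3B) and 5.70% (EGFP) of all genes were called in either direction. UPF1 and SMG9 with DNMT3A and DNMT3B, and UPF1 and SMG5 with EGFP, were already counted as called factors and count again here. Of the 15 targets, 1, 4, 3 and 3 were called higher in the same order, and 0, 1, 1 and 1 lower, GADD45B in each case. Their medians were 0.06, 0.57, 0.69 and 0.46, and 0 were called in edgeR's fit of 4 fusions against the control, where 8 had an unadjusted p under 0.05, against 18.0% of all genes, and DESeq2 called 5, against 992 of 19716 genes. DDIT3, a stress transcription factor, had 78.7 TPM with DNMT1, 54.4 TPM with DNMT3A, 49.1 TPM with DNMT3B, 113 TPM with EGFP and 29.9 TPM in the control. It was called lower in the fit of the fusions (-0.93, edgeR adjusted p = 0.0111), where SNHG1, SNHG6, SNHG7 and SNHG15 were higher. ATF3 and SMG9 were called higher in that fit, so the listed targets went both ways. Of the 15, 7 had an unadjusted p under 0.05 there and DESeq2 called 6, where 28.8% of all genes had such a p and edgeR called 11.0%.

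Other long noncoding RNAs gave lower medians than the hosts with each fusion, -0.27 (DNMT1), -0.73 (DNMT3A), -0.65 (DNMT3B) and -0.11 (EGFP) over 14 measured of 15 listed, a difference that was not tested. Called higher were 1 (DNMT1), 1 (DNMT3A), 0 (DNMT3B) and 1 (EGFP), and called lower 3, 5, 4 and 3. Of all genes, 5.16%, 9.36%, 8.76% and 5.70% were called in either direction. MALAT1, a nuclear RNA, was called higher with 3 fusions, at 111 TPM (DNMT1), 55.5 TPM (DNMT3A), 41.9 TPM (DNMT3B) and 57.7 TPM (EGFP) against 25.4 TPM in the control. The largest called falls were those of PVT1 with DNMT1 (log2 ratio -1.56), CRNDE with DNMT3A (-1.52) and NEAT1 with DNMT3A (-1.42), and TUG1 was called lower with all 4 fusions (-1.23 to -1.02). NEAT1 was called lower with 3 fusions, from 18.9 TPM in the control to 7.001 to 8.86 TPM in those libraries. Of all genes, edgeR called 0.737% in the fit of 4 fusions against the control and 11.0% in the fit of the fusions. In the first TUG1 was the only listed RNA called, lower, and in the second LINC00657 and OIP5-AS1 were called, both lower. TUG1, LINC00657 and OIP5-AS1, like DHX34 and SMG8 above, are named because they make up these counts and were chosen after their values were seen. Between the fusions, 6 of the 14 measured had an unadjusted p under 0.05 in edgeR, against 28.8% of all genes. DESeq2 called 3 of them there, against 2146 of 19379 genes.

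**Figure D4:**
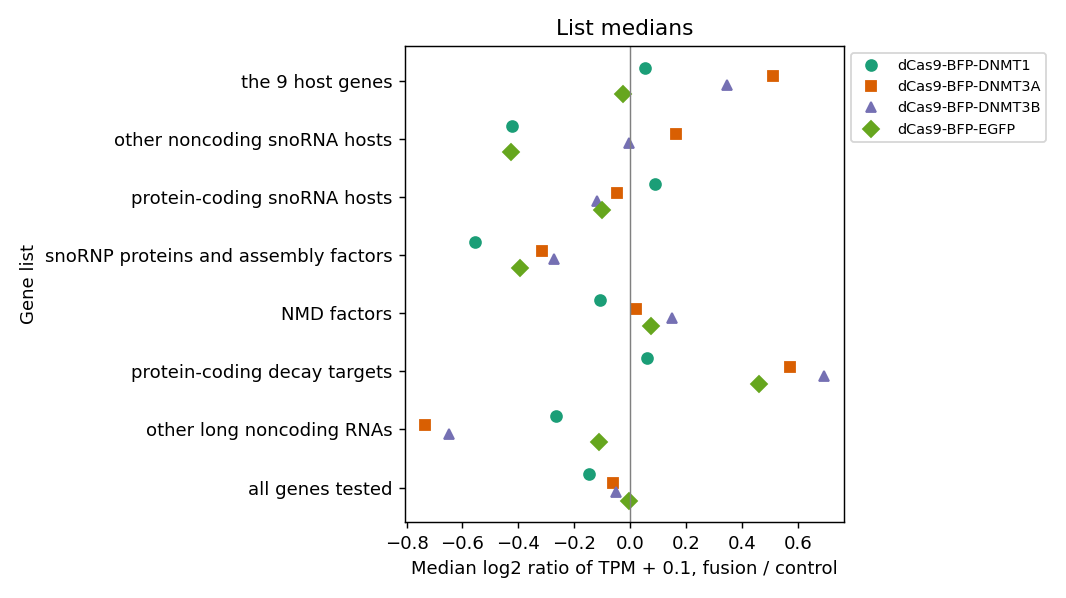
Median log2 ratio of TPM + 0.1 to the control for the 9 hosts, 6 other gene lists and all genes tested, with 1 point per fusion library. The hosts' medians run from -0.03 to 0.51, above those of all genes with DNMT1, DNMT3A and DNMT3B.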

How the data were processed

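RNA of 5 HEK293T groups, 1 library each, was sequenced on an Ion Proton after selection of poly(A) RNA, sizing of the cDNA and PCR. The authors removed reads of low quality, with adaptor or under 30 nt, aligned the rest with tmap (version not stated) to RefSeq RNA of hg19 with at most 3 mismatches, and kept unique reads. The deposited read count per gene is not normalized. The deposited TPM is that count divided by gene length and scaled to 1000000 per library, which a recomputation gave again. The deposited coverage in percent carries no definition from the authors and was taken as the share of transcript bases under a read. Genes without reads were set to 0.

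The 9 hosts and all gene lists were chosen with earlier results of these data known. Groups came from the sample titles. Ratios are of TPM + 0.1, with 95% exact intervals from the reads. Pairs of libraries were compared on their reads by an exact conditional binomial test, two-sided, with p-values adjusted (Benjamini-Hochberg) across every gene read in at least 1 of the pair. Calls needed an adjusted p of at most 0.001 and 2-fold. The test sees shares of reads and the ratio shares of TPM, so small differences can pass the one and not the other. Counts were also fitted with edgeR 4.0.16 (R 4.3.3, TMM, filterByExpr, quasi-likelihood F test, adjusted p under 0.05), with common coefficients of variation of 0.205 and 0.135. For the ratios, the alternatives were TMM scaling, a larger pseudocount (1 TPM), only genes of at least 1 TPM, a looser adjusted p (0.05), a preset variation of 0.2 in edgeR's exact test, equal depth by thinning, and removal of a loess trend (span 0.3) on length and GC content. For the fits they were DESeq2 1.42.0, size factors by median ratios, the same trend as an offset, omission of the low-count filter, and omission of each fusion. Scripts were tested on simulated data. Gene positions are from GENCODE v44 on GRCh37. Named from the lists were at most 3 genes per direction with the largest change among those called, besides divergent neighbours within 2 kb and the 5 genes nearest to the median profile. The lists were other noncoding and protein-coding snoRNA hosts, their snoRNAs, snoRNP proteins, decay factors, decay targets, other long noncoding RNAs, HEK293 markers and markers of other cells.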

Additional observations from a re-analysis of the deposited data

Results flagged for a closer look

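In the fit over the 4 fusion libraries, 4 hosts differed between the constructs with DNMT3A or DNMT3B and those with DNMT1 or EGFP at an edgeR adjusted p under 0.05, and are listed here for that reason. The log2 difference was 0.83 for SNHG7, 0.83 for SNHG1, 0.66 for SNHG6 and 0.60 for SNHG15. In TPM both DNMT3A and DNMT3B libraries lay above both others for each of these hosts, a pattern held by 38.5% of genes at 10 TPM or more. The nearest libraries across the 2 pairs were 1.30-fold apart for SNHG15 and 1.63-fold for SNHG7, DNMT3B over EGFP in the former and DNMT3B over DNMT1 in the latter. SNHG15 was the host whose control, at 223 TPM, lay above the DNMT3B library as well as above DNMT1 and EGFP.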

How the results depend on the processing

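Of 40 counts of called hosts under the alternatives run, 34 stayed within 1.5 times of the value given. With a coefficient of variation of 0.2, 0 hosts were called with DNMT3A, DNMT3B and EGFP, and with TMM scaling 3 were called with DNMT3B. Leaving out 1 library gave 0 to 5 called hosts in the fit of the fusions. Of 16 medians, 11 stayed within the counting error of the median host. With TMM scaling the median was 0.16 (DNMT1) and 0.44 (DNMT3B), while the median of all genes shifted by 0.10 and 0.09, and with the trend on length and GC removed it was 0.83 (DNMT3A), 0.58 (DNMT3B) and 0.16 (EGFP). Single ratios kept direction and call in 172 of 180 cases. ZFAS1 turned to 0.0422 with DNMT3B under TMM scaling and SNHG8 to 0.0044 with EGFP when thinned. In the fits 125 of 144 values kept direction and call. With libraries left out in turn, the fit against the control ranged from -0.12 to 0.12 for SNHG8 and from -0.0082 to 0.14 for ZFAS1, and the fit of the fusions from -0.020 to 0.49 for GAS5, -0.31 to 0.0364 for SNHG5, -0.0630 to 0.57 for SNHG8, -0.18 to 1.03 for SNHG12 and -0.0917 to 0.33 for ZFAS1. The cause was not tested. Over all genes, DESeq2 called 992 (528 higher) in the fit against the control where edgeR called 118 (15 higher), no filter gave 252 there and 1052 instead of 1694 in the fit of the fusions, and the loess correction gave 2111 in the latter, 1031 of them higher instead of 1058. No paired analysis was possible because each group has 1 library. Depth limits SNHG12 most among the hosts, at 135 to 702 reads, and the snoRNAs at 31 to 101 reads in all.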
